A study of Bos taurus with 34 samples.

Results

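Cell-free small RNA of blood was compared between libraries in which the miRNA miR-486 took a large share of the counts and libraries in which it did not, all from dairy cows diagnosed with subclinical endometritis (SCE), in which the endometrium is inflamed while the cow looks well. The members are all 22 SCE libraries, out of 34 deposited files, from 11 cows (numbered 7 to 17) with 1 library each at label day 25 and label day 45. The design text dates these samplings to 21 and 44 days postpartum, and names plasma where the sample labels name serum. The classes were chosen by the measured share of miR-486: a library was placed in the high class when miR-486 made up 20% or more of all its counts, and in the low class otherwise. This gave 13 high and 9 low libraries: 5 high and 6 low at day 25, and 8 high and 3 low at day 45. No breed, age or treatment is given in the labels for these cows. These classes are not groups of the study, and the tests below ask which other miRNAs vary with them. The 6 healthy cows, with 11 distinct libraries, are used only as values set beside the classes.

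miR-486 is made in developing red blood cells from an intron of ankyrin 1, and together with miR-451 and miR-144 it is among the miRNAs that mature red cells hold in quantity. Red cells that break during or after sampling release these miRNAs into plasma or serum, so their share is often used to judge hemolysis, with miR-451 set against the steadier miR-23a. Cell-free miRNA also comes from platelets, leukocytes, vessel walls, liver and other tissues. All reads of a library share 1 total, so miR-486 lowers the share of every other miRNA. Levels below are therefore CPM, counts per 1000000 counts of the total without miR-486.

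The share of miR-486, which set the classes and is given with no test, ran from 3.95% to 79.0%. At day 25 the high libraries were those of cow 7 at 79.0%, cow 8 at 49.4%, cow 10 at 43.4%, cow 13 at 41.8% and cow 9 at 27.8%. The low ones ran from 4.0% in cow 14 to 10.8% in cow 11. At day 45 the 3 low libraries were those of cow 9 at 3.95%, cow 16 at 10.6% and cow 11 at 17.5%. The high ones then ran from 21.3% in cow 17 to 52.1% in cow 15. The values nearest the threshold were 17.5% below it and 21.3% and 21.9% above it, all at day 45. At day 25 no library lay between 10.8% and 27.8%. Of the 11 cows, 4 (cows 7, 8, 10 and 13) were high on both days and 2 (cows 11 and 16) were low on both. Cows 12, 14, 15 and 17 were low at day 25 and high at day 45, and cow 9 moved the other way. Of the 11 healthy libraries, 1 lay under the threshold, at 14.7%, and the highest reached 81.1%.

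**Figure D1:**
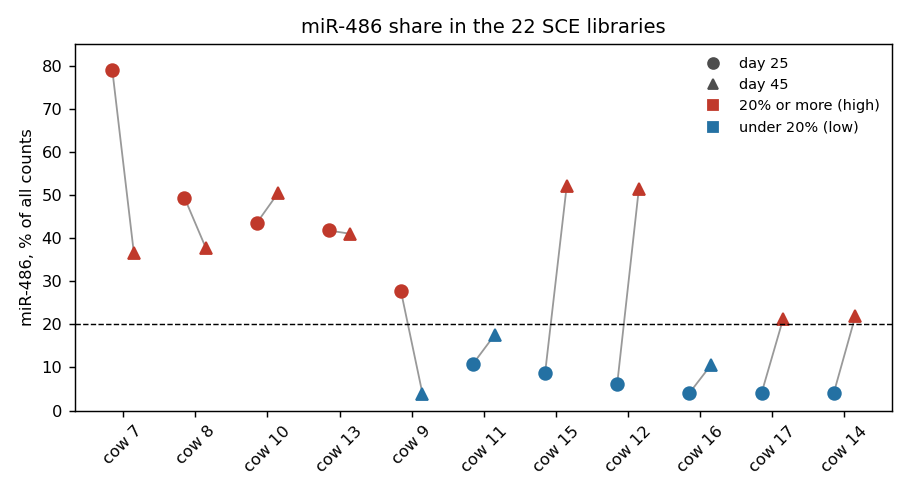
Share of miR-486 in all counts (percent, vertical axis) for each SCE cow at day 25 (circles) and day 45 (triangles), joined within a cow and ordered by the day-25 share, with the 20% threshold dashed. Day 25 leaves a gap between 10.8% and 27.8%, whereas 3 day-45 libraries lie between 17.5% and 21.9%, and the lines of 5 cows cross the threshold.

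Totals over all miRNAs ran from 678389 to 19747294 counts in the 22 libraries, and both libraries of cow 10 were shallow. Without miR-486, day-25 totals in units of 1000000 counts were 3.82 ± 2.81 in the high class (SD, n = 5) and 8.82 ± 3.11 in the low class (SD, n = 6), with ranges that overlapped. This total is part of the share that defines the classes. It was included in the 12 tests of library measures used below, but its own p is not read as a result. Thinning every day-25 library to 760020 counts left 92 of the 123 miRNAs called below testable, and 86 of these were called again in the same direction. The number in a library's title also moved with the class at day 25, with 31, 33, 35, 37 and 43 in the high class and 39, 41, 45, 47, 49 and 51 in the low class. No source used here says what the title numbers stand for, and their part in the results was not tested. Since no source says that a library was repeated, each value is 1 library of 1 cow. In comparisons within 1 day, p-values measure the spread between cows. In the fit of both days with cow and day as terms, they measure the spread left after those terms. The test of a difference between the days has no term for the cow and treats its 2 libraries as independent.

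The first comparison asks, among cows sampled on the same day, which other miRNAs differ between libraries with much and little miR-486. At day 25 many did. Of 367 miRNAs tested with edgeR's quasi-likelihood test, 123 passed an adjusted p of 0.05 (33.5%), 78 higher in the high class (21.3%) and 45 lower (12.3%). An unadjusted p under 0.05 was reached by 174. Called or not, 202 of the 367 had higher values in the high class and 165 had lower ones. The higher set made up 25.4% to 44.3% of the counts without miR-486 in the 5 high libraries and 7.70% to 23% in the 6 low ones, where the highest value was that of cow 11. The lower set made up 4.49% to 7.99% in the high libraries and 13.3% to 18.4% in the low ones. Both sets were picked by their difference in these same libraries, so the separation of the sums follows from that choice. The groups of libraries did not overlap for 55 miRNAs (15.0%), of which 23 were higher (6.27%) and 32 lower (8.72%) in the high class. The median difference over all 367 was 0.20 (log2), and it was 0.09 with TMM scaling and -0.10 with miR-486 kept in the total and TMM scaling together. With both, 42.9% of the calls were on the higher side, and 56.7% with TMM scaling alone, against 63.4% in the comparison as made. Placing cow 9 in the low class, as a threshold of 30% does, left 17 calls.

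Red blood cell miRNAs stood on the higher side at day 25. All 13 tested members of the list of 14 had higher values in the high class, against 202 of all 367 miRNAs. Of the 13, 8 were called higher, against 78 of the 367. The list's median difference was 1.26 (log2), against 0.20 over all miRNAs. miR-20a, at 0.09, turned lower with TMM scaling. miR-451 is processed without Dicer and is needed for red cells to withstand oxidative stress. Its level was 18937 CPM in cow 7, 42650 in cow 8, 9507 in cow 9, 19011 in cow 10 and 17508 in cow 13, against 2136 to 7425 (median 3787) in the 6 low libraries. Every high library lay above every low one, and the log2 difference was 2.35 (SE 0.39, adjusted p = 0.000738). The healthy libraries ran from 759 to 31461 with a median of 6382, across both classes.

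miR-144, made from the same transcript as miR-451, gave 177, 401, 418, 620 and 737 CPM in cows 7, 8, 9, 10 and 13. The low libraries gave 68.2 to 139 with a median of 103, again with no overlap, and the difference was 2.21 (log2, SE 0.38, adjusted p = 0.000991). Set against miR-23a, as hemolysis checks do, miR-451 gave a log2 ratio of 3.64 ± 0.86 in the high and 0.49 ± 0.72 in the low libraries (SD, n = 5 and 6). The difference of 3.15 had an exact two-sided permutation p of 0.00433, the smallest that 5 against 6 allows, and 0.0260 after Benjamini-Hochberg adjustment over 12 tests. For miR-144 the same ratio differed by 2.96, with the same p. miR-23a is no fixed point here, since it was itself lower in the high class by -0.80 (log2, SE 0.28, adjusted p = 0.0357).

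miR-25 had the lowest p of the comparison. It belongs to the miR-106b to miR-25 cluster in an MCM7 intron and shares its targeting sequence with miR-92a and miR-363. Its level was 32505 CPM in cow 7, 22370 in cow 8, 8753 in cow 9, 17081 in cow 10 and 11429 in cow 13, against 1909 to 5667 (median 2524) in the low class. The groups did not overlap, and the means of 18428 ± 9462 and 3038 ± 1379 (SD, n = 5 and 6) differed by 2.60 (log2, SE 0.38, adjusted p = 0.000683). In healthy libraries miR-25 ran from 5291 to 45322, with a median of 14858. Its neighbour miR-93 was higher by 1.19 (SE 0.30, adjusted p = 0.00763), with 2943 to 9173 CPM in the high and 2087 to 2822 in the low libraries.

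The other red cell members did not all move alike. miR-92a was higher by 1.39 (log2, SE 0.34, adjusted p = 0.00566) and miR-185 by 2.67 (SE 0.59, adjusted p = 0.00413), each with overlapping classes. miR-16b was higher by 1.03 (adjusted p = 0.0195) and miR-15a by 0.89 (adjusted p = 0.0350). miR-16a, miR-20a and miR-363 had differences of 0.29, 0.09 and 0.48 that did not pass, nor did miR-182 at 1.26 or miR-183 at 1.68. Of the 15 tested members of the miR-17-92 cluster and its paralogs, 4 were called higher, against 78 of all 367, and none lower. The median of the 15 was 0.18, close to that over all miRNAs.

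**Figure D2:**
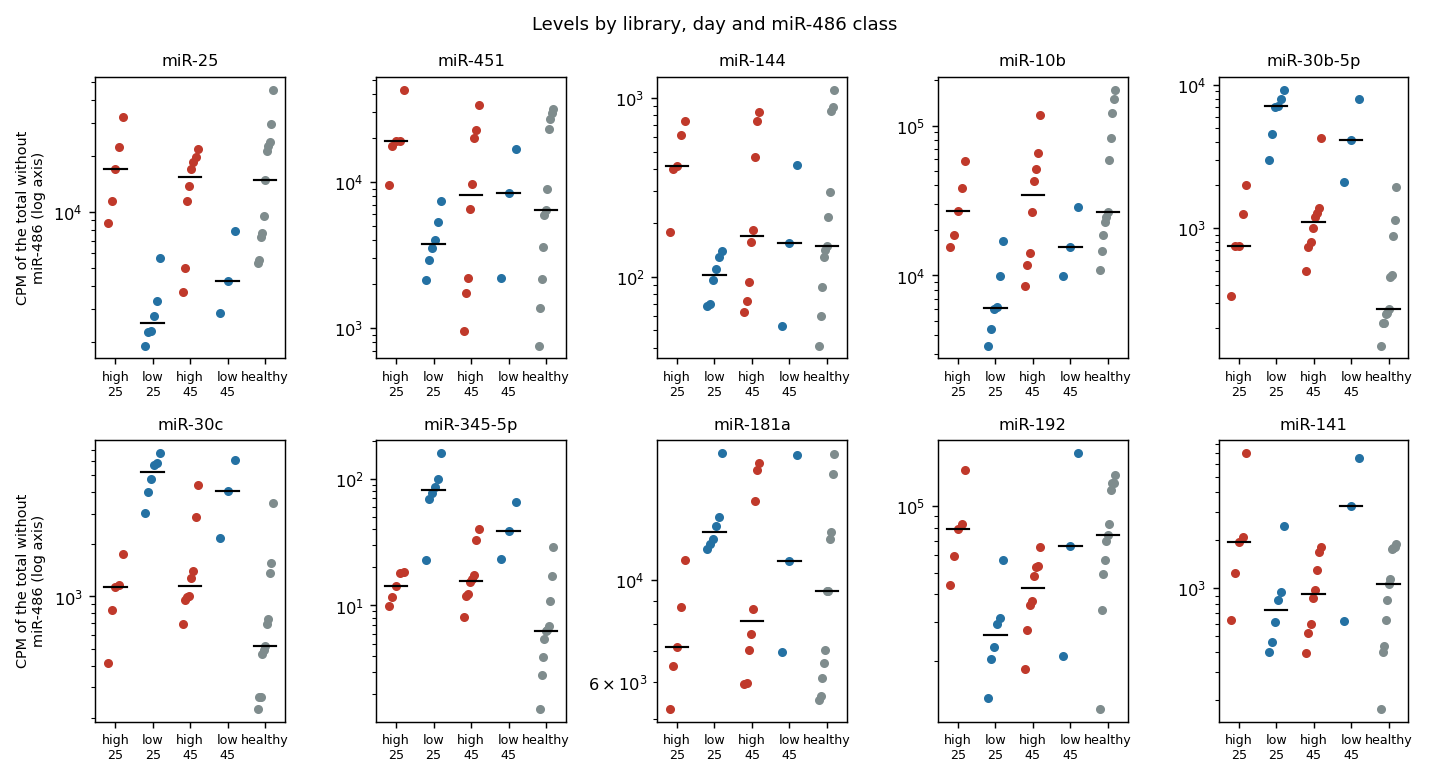
CPM of the total without miR-486 (log axis) for 10 miRNAs in each library, by class and day, with all 11 healthy libraries in grey and medians as bars. At day 25 the classes separate for miR-25, miR-451, miR-144, miR-30b-5p, miR-30c, miR-345-5p and miR-181a, while at day 45 they overlap for all 10.

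The higher set also held miRNAs of other cells and tissues. Among miRNAs of vessel wall and stroma, 8 of 16 passed on the higher side and 1 on the lower, against 78 and 45 of all 367. Of the 16, 11 had higher values and 5 lower ones, with a median of 1.23 (log2). miR-10b, encoded in the HOXD cluster, was at 18538, 15593, 58080, 26972 and 38220 CPM in cows 7, 8, 9, 10 and 13, and at 3405 to 17026 (median 6067) in the low class. Cow 8 lay under the highest low library, and the difference was 2.01 (SE 0.43, adjusted p = 0.00333). miR-100, of the miR-99 family, differed by 2.76 (SE 0.54, adjusted p = 0.00208), miR-99b by 2.38 (adjusted p = 0.00254) and miR-143, a smooth muscle miRNA, by 1.64 (adjusted p = 0.00793). The 4 tested members of the miR-199 family were all called higher, and miR-199a-3p gave 958, 1005, 493, 659 and 585 CPM in the high libraries against 90.9 to 300 in the low ones, with no overlap. miR-195, counted with this list, was the member called lower, at -1.46 (adjusted p = 0.0221). Names of the miR-199 family are on the platelet list as well. Of its 16 tested members, 9 had higher and 7 lower values at day 25. Of the 16, 5 were called higher and 2 lower, against 78 and 45 of all 367 (21.3% and 12.3%). The platelet median was 0.20 (log2), the same as over all miRNAs.

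Tested members of the imprinted DLK1-DIO3 domain, a large miRNA cluster expressed from the maternal allele, numbered 12. All 12 had higher values, against 202 of all 367 miRNAs. Their median was 1.56, and 7 of the 12 were called higher, against 78 of the 367. miR-127, which lies antisense to the imprinted gene RTL1, was at 436, 228, 378, 139 and 228 CPM in cows 7, 8, 9, 10 and 13. The low libraries ran from 40.9 to 187 with a median of 51.4. They overlapped the high class only through cow 10, and the difference was 1.92 (SE 0.46, adjusted p = 0.00562).

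Liver miRNAs had higher values for 9 of 10 members, against 202 of all 367 miRNAs. Of the 10, 4 were called higher, against 78 of the 367. Hepatocyte-restricted miR-122 differed by 2.54 (SE 0.61, adjusted p = 0.00566), from means of 31.1 and 5.43 CPM. miR-192, shared by liver and gut, was at 83574, 79052, 145498, 43971 and 59773 CPM in cows 7, 8, 9, 10 and 13 and at 13500 to 56907 in the low class, which gave 1.5 (SE 0.37, adjusted p = 0.00566). Epithelial miRNAs had higher values for 7 of 8 members, and 2 of the 8 passed, near the 21.3% called higher of all miRNAs. One was miR-375, an endocrine and epithelial miRNA, at 1.69 (adjusted p = 0.00773), and the other was miR-205, of squamous and basal epithelium, at 1.77 (adjusted p = 0.0394). The epithelial median of 1.28 became 0.70 without cow 9, which had the highest epithelial sum of the day, at 1.24% of counts without miR-486.

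The largest called differences were those of miR-146b at 3.68 (SE 0.91, adjusted p = 0.00623) and miR-2457 at 3.49 (SE 0.53, adjusted p = 0.000683). miR-146b, which is induced by NF-kB and restrains innate immune signalling, ranged from 88.0 to 352 CPM in the high and from 0.580 to 74.4 in the low libraries. The inflammation-induced list it belongs to had 4 higher and 4 lower values among 8 tested members, with a median of -0.06. Of the 8, 1 was called higher and 2 lower, against 78 and 45 of all 367. Among miRNAs used as references in blood, miR-423-5p was higher by 1.51 (adjusted p = 0.00880) and miR-103 by 1.38 (adjusted p = 0.00709). The reference list held calls in both directions, 2 higher and 2 lower of 7, against the same 78 and 45 of 367.

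The lower set was led by miR-30b-5p, of a family that acts in autophagy and differentiation. Its level was 334 CPM in cow 7, 1990 in cow 8, 756 in cow 9, 753 in cow 10 and 1253 in cow 13, against 2987 to 9226 (median 7095) in the low class. The classes did not overlap, and the difference was -2.67 (log2, SE 0.44, adjusted p = 0.000738). miR-30c had 413, 1756, 838, 1170 and 1138 CPM in the same cows and 3017 to 6681 in the low class, again without overlap, for -2.23 (SE 0.37, adjusted p = 0.000738). miR-30a-5p, which shares their seed, went the other way at 1.44 (SE 0.48, adjusted p = 0.0300). Of the 6 family members tested, 3 were called lower and 1 higher, against 45 and 78 of all 367.

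miR-345-5p was at 11.6, 14.3, 9.85, 18.4 and 18.2 CPM in cows 7, 8, 9, 10 and 13 and at 22.8 to 159 (median 82.1) in the low class. No library overlapped, and the difference was -2.58 (SE 0.46, adjusted p = 0.00118). The annotated bovine miRNA miR-11999 differed by -2.76 (SE 0.51, adjusted p = 0.00152) at levels under 10 CPM. miR-28 was at 111 to 224 in the high and 407 to 522 in the low libraries, for -1.62 (SE 0.30, adjusted p = 0.00166). let-7d was at 273 to 739 against 1001 to 1537, for -1.55 (SE 0.33, adjusted p = 0.00301), and was the called one of 9 tested let-7 members, 8 of which had lower values.

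Members of the lymphocyte list lay mostly on the lower side at day 25. Of 11 tested, 10 had lower values, against 165 of all 367 miRNAs. Of the 11, 5 were called lower, against 45 of the 367. The list median was -0.90 (log2), against 0.20 over all miRNAs. Called members included 3 of the 4 tested of the miR-181 family, which sets the sensitivity of T cell receptor signalling. miR-181a was at 11032, 5255, 6522, 8737 and 7158 CPM in cows 7, 8, 9, 10 and 13 and at 11613 to 18729 in the low class, just clear of cow 7. It differed by -0.81 (SE 0.26, adjusted p = 0.0264), miR-181b by -1.23 (adjusted p = 0.00479) and miR-181c by -1.60 (adjusted p = 0.00185). miR-155, induced in activated lymphocytes and macrophages, was lower by -1.23 (adjusted p = 0.0116). miR-150, the most restricted to mature B and T cells of this list, differed by -0.99 and did not pass (SE 0.64, adjusted p = 0.230). miR-342 was not called either. Of the called members, miR-28 is also on the platelet list and miR-155 on the neutrophil and monocyte list.

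The summed lymphocyte list took 1.34% to 1.85% of counts without miR-486 in the high libraries and 1.97% to 4.05% in the low ones. The red cell list took 4.75% to 16.0% and 2.54% to 4.52%. Both lists separated the day-25 classes. These are shares of 1 total. Fewer cells of a type, less RNA released per cell and more RNA from other sources cannot be told apart in them. The part of red cell RNA in the other differences was not tested.

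Several families and groups of neighbouring genes had calls in 1 direction. All 3 tested miR-26 members were called lower, with miR-26a at 6335 to 21499 CPM in the high and 23869 to 58386 in the low libraries, for -1.82 (SE 0.36, adjusted p = 0.00208). The ratio of miR-26a to miR-26c counts was 2 in all libraries, so that pair is 1 measurement. All 3 tested miR-374 members were called lower as well, among them miR-374b at -2.05 (SE 0.44, adjusted p = 0.00333). Neighbouring miRNA genes with gaps of at most 10 kb in RefSeq's table for cattle (assembly ARS-UCD2.0) formed 58 clusters with 2 or more tested names, after 360 of the 367 names were matched. In 10 clusters at least 2 names were called and all were higher, such as miR-144 with miR-451 and miR-25 with miR-93. In 8 at least 2 were called and all were lower, such as miR-181a with miR-181b and miR-374b with miR-421. In the 2 remaining clusters with several calls both directions occurred, and both hold miR-24 genes. The other 38 of the 58 clusters had fewer than 2 calls. These counts hold the same names more than once, since miR-181a and miR-181b are in 2 of the 8 clusters and names of the miR-199 and miR-3604 genes in 3 of the 10. The pair miR-26a with miR-26c is 1 measurement, as said above. The pairs miR-338 with miR-3065, miR-148c with miR-152 and miR-199a-3p with miR-3604 carry the same or nearly the same counts. Each of these pairs is also 1 measurement.

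Arms of 1 precursor could differ. miR-331-5p was higher at 2.38 (SE 0.43, adjusted p = 0.00144), with 3.86 to 10.8 CPM against 0.777 to 2.55. miR-331-3p was lower at -1.91 (SE 0.43, adjusted p = 0.00423), with 5.45 to 16.3 against 23 to 67.3. At the miR-191 and miR-425 locus, miR-425-3p was lower at -1.20 (SE 0.33, adjusted p = 0.0118) and miR-425-5p differed by -0.11 (adjusted p = 0.796). The difference between the arms was not itself tested. miR-191, the most abundant miRNA other than miR-486 at 20.1% ± 10.5 of the counts without miR-486 (SD, n = 22), was at 93832 to 235378 CPM in the high and 135350 to 282635 in the low libraries. These day-25 ranges overlapped widely, and the difference was -0.38 (SE 0.30, adjusted p = 0.320). At day 45 miR-191 was at 144232 to 499565 CPM in the high and 54264 to 156759 in the low libraries. The difference of 1.4 (log2) was not called. The log2 ratio of miR-191 to miR-23a then differed by 2.04 (exact two-sided permutation p = 0.0242, 0.0727 after adjustment over 12 tests). With the classes split at 25% it differed by 0.19. The difference between the days was 1.79 and did not pass (edgeR interaction, adjusted p = 0.060).

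**Figure D3:**
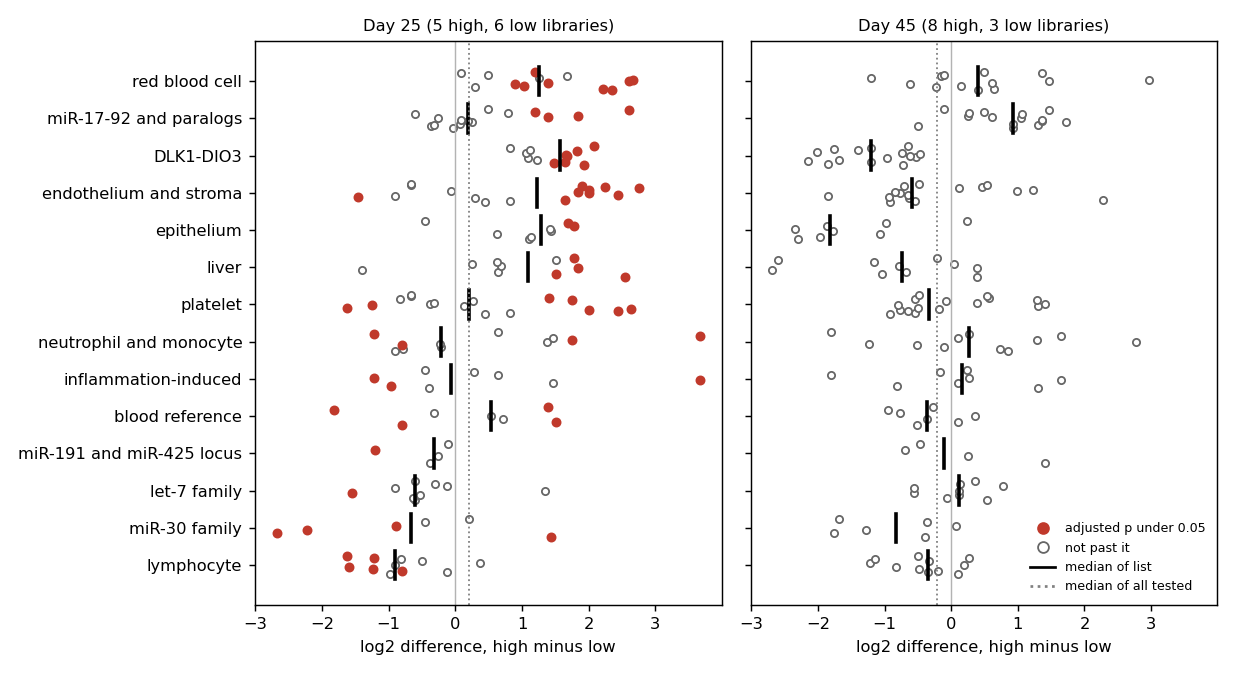
Log2 difference, high minus low class, of each tested list member at day 25 (left) and day 45 (right), with calls at an adjusted p of 0.05 filled, list medians as black bars and the median of all tested miRNAs dotted. DLK1-DIO3, epithelial and liver medians are positive at day 25 (1.56, 1.28 and 1.09) and negative at day 45 (-1.20, -1.82 and -0.74), while the lymphocyte medians are negative on both days.

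At day 45, 0 of 404 miRNAs passed with edgeR (0.00%), and the smallest adjusted p was 0.0505. An unadjusted p under 0.05 was reached by 49, of which 10 were higher and 39 lower in the high class, and DESeq2 called 7. The classes of 8 and 3 libraries did not overlap for 10 miRNAs (2.48%), 1 higher (0.248%) and 9 lower (2.23%) in the high class. The lowest p was that of miR-188, with 1.26 to 8.93 CPM in the high class (median 5.71) and 36.3, 31.1 and 38.7 in cows 9, 11 and 16. All 3 low libraries lay above the 8 high ones, and the difference was -2.77 (SE 0.59). miR-138, known from brain and many other tissues, had 6.90 to 68.4 in the high class and 260, 271 and 106 in cows 9, 11 and 16, for -2.45 (SE 0.59, adjusted p = 0.0554). miR-22-3p, which shares its counts with miR-3600, was at 22170 to 75784 (median 41219) against 129134, 116144 and 132133, for -1.45 (SE 0.44, adjusted p = 0.130). None of these 3 was called, and none was called at day 25, where the differences were -1.26, -1.08 and -0.52.

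At day 45 the classes overlapped for all 13 red cell miRNAs tested. miR-451 ran from 957 to 33408 CPM in the 8 high libraries, and was 2204, 16918 and 8416 in cows 9, 11 and 16, for 0.40 (SE 0.85, adjusted p = 0.948). Its log2 ratio to miR-23a differed by 0.58 (exact two-sided permutation p = 0.606), and by -0.38 without cow 9. miR-25 was at 3696 to 21739 against 4261, 7892 and 2856, for 1.47 (SE 0.60, adjusted p = 0.345). miR-30b-5p was at 499 to 4281 against 2094, 4154 and 7973, for -1.76 (SE 0.57, adjusted p = 0.144). The high libraries also held fewer miRNAs with at least 10 counts, 317 ± 50.9 against 402 ± 45.4 (SD, n = 8 and 3; exact two-sided permutation p = 0.0121, the smallest that 8 against 3 allows, and 0.0485 after adjustment over the 12 tests). This number depends on depth, and totals without miR-486 were 5.93 ± 3.7 against 10.8 ± 4.77 in units of 1000000 counts in the same libraries (SD, n = 8 and 3). The part of depth in it was not tested. With the classes split at 15% the difference was -44 (exact two-sided permutation p = 0.364).

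Several lists that were higher at day 25 had lower values at day 45. All 15 tested DLK1-DIO3 members, 7 of 8 epithelial and 7 of 10 liver members had negative differences, against 236 of all 404 miRNAs. The liver count is not far from that share. List medians were -1.20, -1.82 and -0.74, against -0.21 over all miRNAs. The day-45 median over all miRNAs depended on the scaling. It was -0.03 with TMM scaling and 0.09 with miR-191 also left out of the total. The difference between the days was tested as the interaction of day and class over the 22 libraries. This test had no term for the cow and used only the total without miR-486. It passed for 27 of 435 miRNAs (6.21%), 26 of them with the lower value at day 45, and for 0 when cow 9 was left out, where 38 had an unadjusted p under 0.05.

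Cow 9 was in the high class at day 25 and in the low class at day 45. Its liver sum was 15.9% and 18.9% of counts without miR-486 on these days, and its epithelial sum was 1.24% and 1.45%. On each day both sums were the highest of their list among the 11 cows. miR-192 was at 145498 and 174018 CPM in this cow and miR-141, of the miR-200 family, at 7018 and 6594. Cows 11 and 16, low on both days, gave liver sums of 6.63% and 1.94% at day 25 and 7.73% and 2.68% at day 45. Without cow 9 the liver median at day 45 was 0.35 and the epithelial one -0.68. Leaving out cow 12, 14 or 17 left 2, 3 and 2 interaction calls, and leaving out cow 10 or 16 gave 54 and 48.

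The within-cow comparison holds each cow and day fixed. Its class term draws on the 5 cows with 1 library in each class. The cows that kept their class inform the day term, and through it the class term. In 4 of the 5 cows with both classes the high library was the later one. Of 373 miRNAs, 1 was called (0.268%), and 69 had an unadjusted p under 0.05 (18.5%). That miRNA was miR-345-5p, at -2.36 (log2, SE 0.48, adjusted p = 0.0396). Within cows its high library lay below the low one by -1.24 in cow 9, -2.70 in cow 12, -3.08 in cow 14, -2.30 in cow 15 and -2.72 in cow 17. Its direction was thus the same in 5 of 5 cows, including the one sampled in the reverse order. These cows inform the class term, so this is not separate support. Uncalled miRNAs such as miR-22-3p and miR-93 also kept 1 direction in all 5. The call of miR-345-5p was lost when any 1 of cows 9, 10, 11, 12, 13, 14 or 17 was left out. Its adjusted p was then 0.0571 to 0.193, and the difference lay between -2.98 and -2.23. It was also lost with the classes split at 15%, 25% or 30%, where the difference was -1.90, -1.91 and -2.24 with adjusted p of 0.320, 0.548 and 0.57. Without the cow as a block 49 miRNAs passed, 16 higher and 33 lower.

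The next lowest p belonged to miR-30b-5p, which had differences of -1.47, -3.26, -3.18, -0.72 and -3.0 in cows 9, 12, 14, 15 and 17, and -2.33 in the fit (SE 0.52, adjusted p = 0.0563). miR-30c gave -1.90 (adjusted p = 0.103), with all 5 cows below 0. miR-25 gave 1.04, 2.75, 0.15, 3.25 and 1.1 in these cows and 1.6 in the fit (SE 0.47, adjusted p = 0.107). miR-10b gave 1.03, 4.26, 1.41, 0.47 and 3.54, and 1.86 in the fit (adjusted p = 0.116). miR-451 did not keep a direction, with 2.11, 0.87, -1.16, 3.06 and -0.69. Of the 13 tested red cell members, 12 had higher values in the fit and 1 a lower one, against 169 higher of all 373. The list median was 0.63 (log2), against -0.07 over all miRNAs. All 11 tested lymphocyte members had lower values, against 204 of all 373, with a median of -0.72. No member of either list was called. For miR-192 the fit gave 0.16 (SE 0.38).

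**Figure D4:**
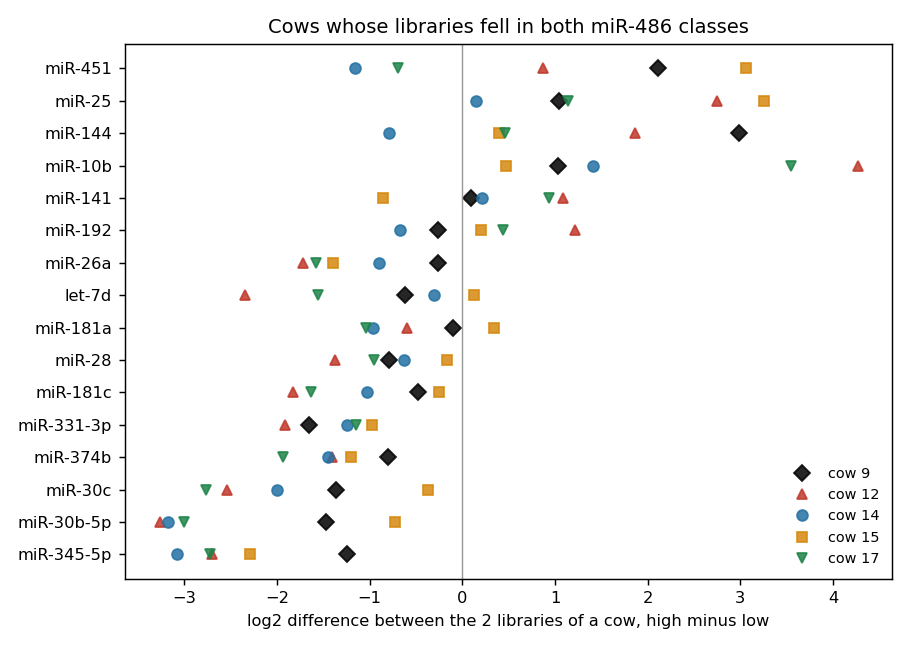
Log2 difference between the high and the low library of the same cow (horizontal axis) for 16 miRNAs, picked for display, in the 5 cows with 1 library in each class. miR-345-5p, miR-30b-5p, miR-30c, miR-374b and miR-331-3p are below 0 in all 5 cows and miR-25 and miR-10b above 0 in all 5, while miR-451, miR-141 and miR-192 lie on both sides.

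The sets called at day 25 were followed in libraries that did not enter those calls. At day 45, in new libraries of the same cows, 36 of the 45 lower miRNAs had a negative difference, against 212 of 364 over all those tested on both days. Of the 78 higher ones, 36 had a positive difference, against 152 of 364.

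The healthy libraries played no part in the rule. Across the 11 of them, from 6 cows, the slope of a miRNA's log2 level on the log2 odds of the miR-486 share was positive for 73 of the 78 higher miRNAs, against 203 of all 367, with a median of 0.47. It was negative for 42 of the 45 lower ones, against 164 of 367, with a median of -0.39. Among lymphocyte members it was negative for the 5 called. It was 0.73 for miR-150 and 0.58 for miR-342, which were not called. These slopes are a description with no p, since most healthy cows gave 2 libraries and all miRNAs of a library share its total.

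**Figure D5:**
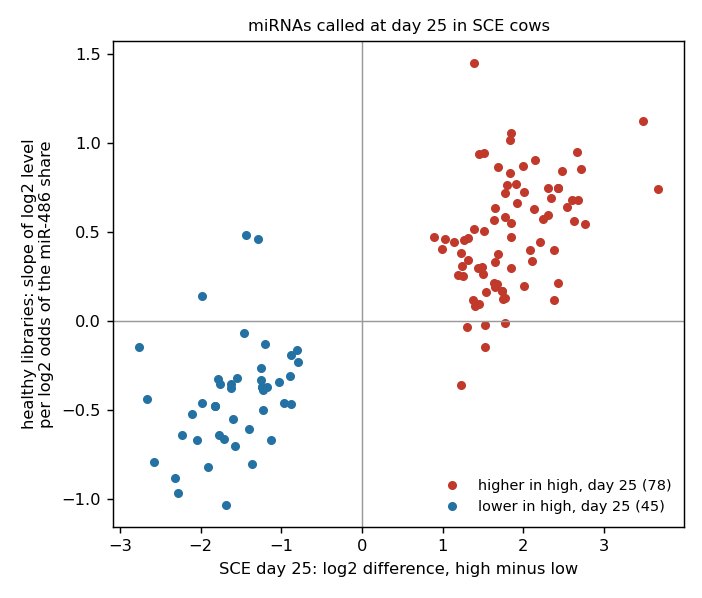
For the 123 miRNAs called at day 25 in SCE cows, the log2 difference between classes (horizontal axis) against the slope of the log2 level on the log2 odds of the miR-486 share in the 11 healthy libraries (vertical axis). Of the 78 higher miRNAs (red) 73 have a positive slope, and of the 45 lower ones (blue) 42 have a negative one.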

How the data were processed

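The data are small RNA libraries of cell-free blood RNA, 1 per cow and day. Per the labels' protocols, each was built by adapter ligation from small RNA (10 to 20 ng) with 13 or 16 PCR cycles and no molecular identifiers named, so counts are of reads after PCR. The authors deposited 1 file of whole-number counts per library, with 800 bovine miRNA names, and the values show no normalization. Per the submitters' processing notes, bcl2fastq 2.17.1.14, genome build UMD 3.1 and DESeq2 were used. How reads were aligned and counted, which annotation was used and how reads matching several miRNAs were treated is not given in the sources used.

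Tables were merged on miRNA names without the species prefix. Healthy cow 3 has the same counts under both days, with the day-45 title in both headers, and counts as 1 library, at day 45. The counts of 7 pairs of names differed by at most 1%, among them miR-22-3p with miR-3600, miR-148c with miR-152 and miR-199a-3p with miR-3604. Classes, members and miRNA lists were chosen with earlier results of these data known.

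miR-486 was removed, and the total of the rest was used as library size with no further scaling. The test was edgeR 4.0.16 (R 4.3.3), the quasi-likelihood F test, two-sided, with its default filter on low counts by class and Benjamini-Hochberg adjustment at 0.05. Standard errors are the absolute log2 difference divided by the square root of F. Each day was fitted alone with independent cows, and both days together with cow and day as terms. The same animal gave both libraries, so the cow number pairs them. Deviations from class means had a median correlation across miRNAs of 0.356 within a cow, over 0.1 in 9 of 11 cows, and -0.0427 between cows. Library measures were compared by exact permutation tests. Lists are given by counts and medians with no test.

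Named miRNAs follow a rule: in each fit up to 15 called in each direction by lowest p, with the list filled to 20 by unadjusted p, where the fill is given as values only. It adds the 10 most abundant miRNAs, all red blood cell and miR-191 locus members and the 2 most abundant of each other list. Named outside it, after their values were seen, are miR-23a, miR-103, miR-122, miR-155, miR-195, miR-30a-5p, miR-342, miR-421 and the miRNAs named only as flagged below. The scripts were tested on simulated data. Alternatives were TMM and DESeq2 size factors, DESeq2 1.42.0, limma 3.58.1 with an estimated correlation within cows, other totals, filters and thresholds, the log2 odds of the miR-486 share, and each cow left out. Thinning to equal depth and the interaction of day and class were added after seeing the data.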

Additional observations from a re-analysis of the deposited data

Results flagged for a closer look

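A difference between classes that itself differed between the days was called for 16 of the named miRNAs (edgeR interaction of day and class over the 22 libraries, adjusted p under 0.05, with no term for the cow). In all 16 the value, day 45 minus day 25 on the log2 scale, was negative. Among epithelial names it was -3.4001 for miR-200a, -3.7711 for miR-429, -3.2211 for miR-141, -3.6449 for miR-205 and -2.6669 for miR-375. Among liver and gut names it was -2.5393 for miR-192, -2.9488 for miR-215 and -4.1163 for miR-365-3p. In the miR-199 group it was -3.0779 for miR-199a-3p, -3.0794 for miR-3604, which carries nearly the same counts, -2.8238 for miR-199b and -2.8746 for miR-199c. It was -3.8951 for miR-152 and -3.8952 for miR-148c, again nearly 1 measurement, -3.2872 for miR-502a and -6.1853 for the red cell list member miR-96. miR-502a and miR-96 are scarce, with means of 0.000398% and 7.76e-05% of counts without miR-486 over the 22 libraries. miR-96 had too few counts to be tested in the day-25 fit. Without cow 9, 0 passed with edgeR and 38 had an unadjusted p under 0.05. The value was then -3.38 for miR-199a-3p (adjusted p = 0.0740), -1.23 for miR-192 and -1.57 for miR-141.

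The library of cow 10 at day 45 held 204 miRNAs with at least 10 counts, far below the other 7 high libraries of that day, and it was also the shallowest library, at 678389 counts. It was the only one set apart in this way in 18 sets of library values, and chance sets apart about 1 in 20.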

How the results depend on the processing

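At day 25 the count of 123 stayed between 89 and 170 over the scalings, filters, thinning and thresholds tried except the 30% threshold, which moved cow 9 to the low class and left 17, with miR-148c at -0.14193 and miR-152 at -0.14203 changing sign. It stayed between 101 and 161 with each cow left out. At day 45, where edgeR called 0, it called 3 with TMM, DESeq2's factors, TMM with miR-486 kept or a mean of at least 10 CPM, 4 with no filter, 1 at a 15% threshold and 6 after thinning, and DESeq2 called 7. Leaving out each cow gave 0 to 10, with 1, 3, 4 and 10 without cows 11, 15, 10 and 16. Within cows, where 1 was called, there were 6 with TMM, 5 with DESeq2's factors or TMM with miR-486 kept, 4 without miR-191 or after thinning, 11 with no filter, 0 at 15% and 25%, 2 at 30%, 23 with the odds of miR-486 and 33 with DESeq2. Leaving out each cow gave 0 to 24, with 3, 8 and 24 without cows 7, 15 and 8, 1 without cow 16 and 0 without any other cow. Without the replicate block 49 were called, and 60 with limma's estimated correlation in place of the block. The interaction count of 27 ran from 0 without cow 9 to 54 without cow 10. The cause of these shifts was not tested.

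With each cow left out, the day-25 ratio to miR-23a differed by 2.94 to 3.47 for miR-451 and 2.79 to 3.1 for miR-144, and the day-25 total without miR-486 by -6.08 to -4.23 (units of 1000000 counts). At day 45 the ratio of miR-451 differed by -0.375 (without cow 9) to 1.35, miRNAs with at least 10 counts by -102 to -59.1, and the share of the 10 most abundant others by -1.18 (without cow 11) to 2.88 percentage points. That share differed by 1.5 as made, by -1.95 at 15% and by -5.39 at 25% and 30%. No longer past the adjusted threshold were the day-25 ratios at 30% (3.21 and 2.66) and miRNAs with at least 10 counts at 15% (-44) and 30% (-76.6). At 25% the day-45 total, which is part of the share that defines the classes, differed by -6.14. The low class held 3 libraries at day 45, and 5 cows had a library in each class.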

Other observations

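Of the 78 miRNAs higher in the high class at day 25, 21 had a mean level under 10 CPM, as did 6 of the 45 lower ones and 130 of all 367. Median levels were 65.1, 154 and 31.1 CPM.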
